A study of Mus musculus with 9 samples.

Results

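Differentiated mouse muscle cells that received TGFβ1 were compared with cultures that received ITD-1, a compound that blocks the same signal. The genes that differed most were *Tnc*, the gene of the matrix glycoprotein tenascin C, at 18.8-fold higher with TGFβ1, and *Mstn*, the gene of myostatin, which limits muscle growth, at 11.6-fold lower. With TGFβ1, 12 of 19 TGFβ response genes, 10 of 15 immediate early factors, 20 of 44 actin filament genes, 9 of 21 collagens and 7 of 15 genes that mature collagen were higher. Of 20 genes of cholesterol synthesis 12 were lower, and of 46 sarcomere and muscle maturation genes 18 were lower and 8 higher, while the factors that commit cells to the muscle lineage and *Mymk*, which encodes the fusion protein myomaker, did not pass the test. Over all genes tested, 4.71% were higher and 3.44% lower, and in the highest of 4 bins by level 19.7% were called. The lists were chosen with earlier results of these data known.

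TGFβ is a secreted cytokine sensed by a pair of serine/threonine kinase receptors, TGFBR2 and a partner of type I. Its signal reaches genes through SMAD2 and SMAD3, which bind DNA with their common partner SMAD4. ITD-1 is a small molecule that drives the degradation of TGFBR2 and so closes the pathway at its receptor. In skeletal muscle, satellite cells give rise to myoblasts, which leave the cell cycle, become myocytes and fuse into multinucleated myotubes, and TGFβ is known there for matrix production and for holding back muscle formation.

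Both groups were primary myoblasts derived from satellite cells of C57BL/6 skeletal muscle (C57Bl6/N in the study's methods), seeded at 30000 cells per square centimetre, allowed to differentiate for 24 h and then kept for 24 h with the treatment. The TGFβ1 cultures received recombinant TGFβ1 at 20 ng/ml (3 arrays). The ITD-1 cultures received ITD-1 (3 arrays), at 5 µM in the study's methods and 5 mM in the sample labels. The whole series held 9 arrays, and the 3 untreated control arrays stayed outside the test and appear here only as levels; because ITD-1 cultures are also treated, a difference between the groups does not say which treatment moved a gene. The labels do not say whether the replicates came from separate animals, and the study describes the experiments as biologically independent.

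The unit of measurement was the log2 intensity of a gene's probe set on a MouseGene 2.0 ST array, on which a difference of 1 is a 2-fold difference. Of 25428 probe sets, the 24704 with a gene symbol of their own were compared. A gene was called when its adjusted p (limma, Benjamini-Hochberg over all 24704) was below 0.05. The first principal component of the 6 arrays held 59.7% of the variance and separated the groups. Array medians lay between 4.09 and 4.19, and correlations between arrays were 0.994 to 0.996 within TGFβ1, 0.992 to 0.995 within ITD-1 and 0.983 to 0.986 between the groups.

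TGFβ1 and ITD-1 cultures differed in 2014 genes, 8.15% of those tested, with 1164 higher with TGFβ1 (4.71%) and 850 lower (3.44%). Large differences ran mainly one way: among called genes, 335 were at least 2-fold higher and 122 at least 2-fold lower, and at a size of at least 4-fold the counts were 57 and 5. The median size was 0.74 for genes called higher and 0.58 for genes called lower (log2). Over all genes the median difference was -0.03. In 5776 genes, 23.4% of those tested, no TGFβ1 array overlapped an ITD-1 array, which includes every called gene. At the cut-offs of the study's methods, an unadjusted p below 0.05 (here from limma) with at least a 1.5-fold difference, 1350 genes passed (5.46%). Of these, 871 were higher and 479 lower. With a one-way analysis of variance on all 9 arrays, the kind of test the methods name, 1316 passed. Calls depended on level: with the genes in 4 equal bins by mean level, 19.7% of the highest bin and 0.324% of the lowest were called.

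**Figure D1:**
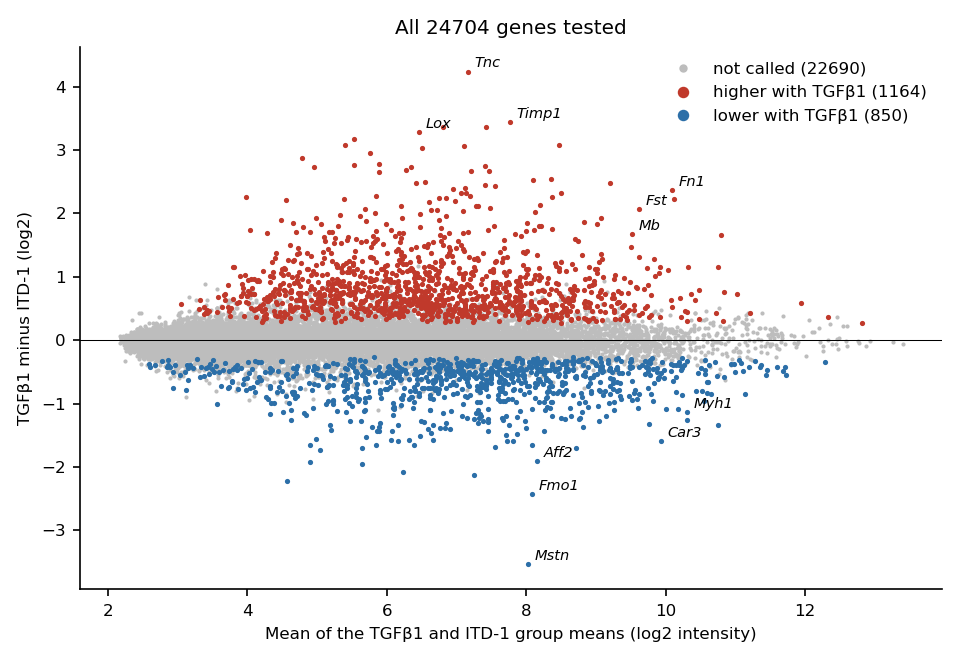
Each point is 1 gene, with the mean of both group means (log2 intensity) on the horizontal axis and the difference of TGFβ1 minus ITD-1 (log2, n = 3 arrays each) on the vertical axis. The 1164 genes called higher reach 4.24 (*Tnc*) and the 850 called lower reach -3.54 (*Mstn*).

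Tenascin C, an adhesion-modulating matrix protein of developing and injured tissue, had the largest difference of all genes named here. *Tnc* was at 9.25, 9.35 and 9.23 on the TGFβ1 arrays, against 4.58, 5.17 and 5.37 on the ITD-1 arrays, a difference of 4.24 ± 0.19 (log2, SE; adjusted p = 8.83e-05). The TGFβ1 arrays lay close together and far above all ITD-1 arrays, and the controls, at 6.37 to 6.47, lay between the groups. *Timp1*, an inhibitor of matrix metalloproteinases, was at 9.56, 9.61 and 9.31 with TGFβ1, against 6.06, 5.62 and 6.48 with ITD-1 (difference 3.44 ± 0.21, 10.8-fold). *Lox*, lysyl oxidase, which cross-links collagen and elastin, was at 7.97, 8.31 and 8.04 with TGFβ1, against 4.65, 5.08 and 4.74 with ITD-1 (3.28 ± 0.14, 9.73-fold). The groups overlapped for neither gene, which holds for every called gene. These 3 genes are among those that the study itself names from these arrays, so their direction is no independent evidence.

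Genes outside the matrix stood beside them. *Gja5*, which encodes the gap junction protein connexin 40, was at 8.93, 9.16 and 9.25 with TGFβ1, against 5.94, 5.61 and 5.68 with ITD-1 (3.37 ± 0.12). *Bhlhe40*, a basic helix-loop-helix repressor, was at 8.59, 8.53 and 8.35 with TGFβ1, against 5.09, 5.09 and 5.21 with ITD-1 (3.36 ± 0.08). In both, the lowest TGFβ1 array stood far above the highest ITD-1 array, but genes were named here for large differences without overlap. *Ptgs2*, the inducible cyclooxygenase that starts prostaglandin synthesis, differed by 3.07, *Egln3*, a prolyl hydroxylase of the oxygen-sensing system, by 3.08, and *Nptx1*, a secreted pentraxin, by 3.07. The rest of the 15 largest rises were *Ctsw* (3.17), a cysteine protease, *Tmem184a* (3.03), *Lrtm1* (2.95), *Anxa8* (2.87), an annexin, *Pxdn* (2.78), peroxidasin of basement membranes, *Trbj2-3* (2.76), a T cell receptor joining segment, and *Grem1* (2.74), a secreted antagonist of bone morphogenetic proteins (BMPs). For *Ctsw* and *Anxa8* the control arrays lay near or among the ITD-1 arrays, whereas for *Grem1* the control mean was 7.33, between 8.55 to 8.91 with TGFβ1 and 5.86 to 6.30 with ITD-1.

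**Figure D2:**
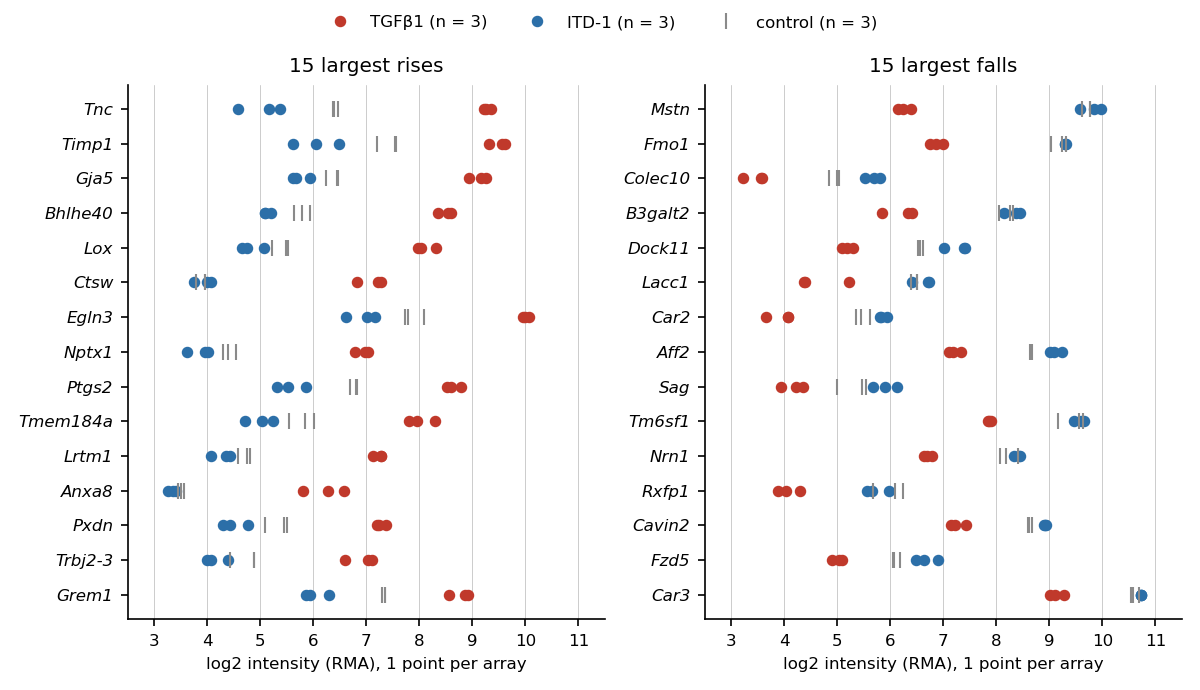
Log2 intensity on every array for the 15 genes with the largest rises (left) and the 15 with the largest falls (right), with red points for TGFβ1, blue points for ITD-1 and grey ticks for control (n = 3 each). Genes whose red and blue points overlapped were left out when the 30 were chosen. For *Mstn*, *Fmo1* and *B3galt2* the control ticks lie among or beside the blue points.

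Myostatin is a ligand of the TGFβ superfamily, made by muscle, that limits muscle mass. *Mstn* was at 6.23, 6.39 and 6.14 on the TGFβ1 arrays, against 9.97, 9.83 and 9.58 on the ITD-1 arrays (difference -3.54 ± 0.12, adjusted p = 3.52e-05). Control arrays were at 9.61 to 9.77, within the range of ITD-1. *Fmo1*, a flavin monooxygenase, was at 7.00, 6.74 and 6.85 with TGFβ1, against 9.29, 9.31 and 9.28 with ITD-1 (-2.43 ± 0.08), and its controls averaged 9.19. The other falls of this size were *Colec10* (-2.22), a collectin, *B3galt2* (-2.12), a galactosyltransferase, *Dock11* (-2.08), an activator of the small GTPase CDC42, *Lacc1* (-1.95), *Aff2* (-1.90), *Sag* (-1.73), *Tm6sf1* (-1.71), *Nrn1* (-1.69), *Rxfp1* (-1.66), the relaxin receptor, *Cavin2* (-1.66), a coat protein of caveolae, and *Fzd5* (-1.65), a Wnt receptor. Both carbonic anhydrases of the list fell, *Car2* by 1.93 and *Car3*, abundant in slow muscle, by 1.60 (log2).

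Promoter sequence is shown for *Tnc* and *Mstn*, because they carry the largest difference in each direction. Each run is the 250 bases before an annotated transcription start, read 5′ to 3′ on the gene's own strand, from RefSeq on build GRCm38.p6. Capitals mark the CAGA box, CAGACA or its reverse complement TGTCTG, which SMAD3 and SMAD4 are known to bind, and in *Mstn* also the AP-1 motif TGANTCA. The window of *Tnc* is chr4:64046937-64047186 on the minus strand, at the start that lies further into the gene of 2 in the table, and that of *Mstn* is chr1:53061390-53061639 on the plus strand. Where a gene had more than 1 start, a start with a CAGA box was preferred for display. A box in a window shown is therefore partly a result of that choice. The window of *Timp1* was also read, held none of the motifs searched, and is not shown.
Tnc: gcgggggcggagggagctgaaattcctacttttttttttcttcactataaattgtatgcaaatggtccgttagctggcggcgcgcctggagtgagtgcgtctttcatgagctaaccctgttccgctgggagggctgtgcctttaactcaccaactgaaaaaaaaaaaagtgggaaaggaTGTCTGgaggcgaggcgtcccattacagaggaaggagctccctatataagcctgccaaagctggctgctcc
Mstn: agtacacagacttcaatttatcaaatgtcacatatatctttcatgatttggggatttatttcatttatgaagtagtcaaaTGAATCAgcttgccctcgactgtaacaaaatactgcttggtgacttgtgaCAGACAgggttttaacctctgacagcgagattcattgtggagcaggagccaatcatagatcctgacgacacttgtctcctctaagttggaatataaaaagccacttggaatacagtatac
The *Tnc* window holds 1 CAGA box, beginning 71 bases before the start, and the *Mstn* window holds 1 CAGA box at 120 bases and 1 AP-1 motif at 170 bases. Of the 30 most changed genes, 18 had a promoter in the table. A CAGA box lay in the windows of 3 of the 10 risen genes (*Tnc*, *Pxdn* and *Anxa8*) and of 2 of the 8 fallen genes (*Mstn* and *Aff2*), beside 17.1% of all 32851 promoters of the same length. A gene counted when any of its windows held the motif, whereas the shares over all promoters count each window, so they are unlike units. The AP-1 motif lay in *Lrtm1* and *Mstn* (6.75% of all promoters), and neither the SMAD palindrome GTCTAGAC (0.167%) nor the CArG box of serum response factor (1.47%) was in any of them. All motifs were searched on both strands, and a match is a description of letters.

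Genes that respond directly to SMAD signaling, or feed back on it, gave the first group of interest. Of 19 measured members, 12 were higher with TGFβ1, none was lower and 7 were not called, and the median difference was 0.74 (log2). The share called was 63.2%, beside 8.15% of all genes. Members of this and the other lists were chosen with earlier results of these data known, so their counts are no independent evidence. The feedback inhibitor *Smad7* (5.99, 5.80 and 5.89 with TGFβ1, against 5.27, 5.10 and 5.04 with ITD-1) and the TGFβ-induced transcription factor *Klf10* (7.65, 7.72 and 7.36 with TGFβ1, against 6.14, 6.18 and 6.31 with ITD-1) differed by 0.76 ± 0.09 and 1.37 ± 0.11. Both are genes the study used as readouts of the pathway, and its qRT-PCR reported both as lower with ITD-1 than in control. On these arrays the control mean of *Smad7*, 4.98, lay below the ITD-1 mean of 5.14. For *Klf10* the control mean, 6.62, lay between 7.58 with TGFβ1 and 6.21 with ITD-1. *Ldlrad4*, which traps receptor-activated SMADs, was at 6.64, 6.43 and 6.39 with TGFβ1, against 4.38, 4.28 and 4.14 with ITD-1 (2.22 ± 0.10, adjusted p = 8.41e-05). The inhibitor *Pmepa1* differed by 1.92 and *Ccn2*, connective tissue growth factor, by 2.05. The nuclear corepressors *Skil* (1.06), *Ski* (0.80) and *Tgif1* (0.74) were higher too.

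Components of the pathway itself moved in both directions. Of 19 ligands, receptors and latency proteins, 6 were higher with TGFβ1, 4 were lower and 9 were not called, with a median of 0.11. The called members were 52.6% of the list, beside 8.15% of all genes. The cells' own *Tgfb1* transcript, which is distinct from the added protein, was at 8.38, 8.06 and 8.00 with TGFβ1, against 5.72, 5.47 and 6.10 with ITD-1 (2.38 ± 0.18). *Tgfb2* was at 6.25, 6.51 and 6.19 with TGFβ1, against 4.41, 4.34 and 4.28 with ITD-1 (1.97 ± 0.10). The third ligand gene ran the other way, since *Tgfb3* was at 9.64, 9.73 and 9.60 with TGFβ1, against 10.09, 10.03 and 10.14 with ITD-1 (-0.43 ± 0.07), a call that was lost without TGFβ1 replicate 1 (adjusted p = 0.0519). *Thbs1*, thrombospondin 1, which releases latent TGFβ, was 4.66-fold higher (2.22 ± 0.10).

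The transcripts of the receptors and of the SMADs did not move together. *Tgfbr2*, the receptor whose protein ITD-1 removes, was at 6.97, 7.21 and 7.14 with TGFβ1, against 6.10, 6.09 and 5.65 with ITD-1 (1.16 ± 0.14). The arrays measure this transcript and not the protein. *Smad3*, the signal carrier, was at 7.17, 7.37 and 7.10 with TGFβ1, against 8.17, 8.11 and 8.25 with ITD-1 (-0.96 ± 0.09, adjusted p = 0.000939). Its control arrays averaged 7.91. *Smad2* and *Smad4* differed by -0.07 and 0.17, and neither passed the test.

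**Figure D3:**
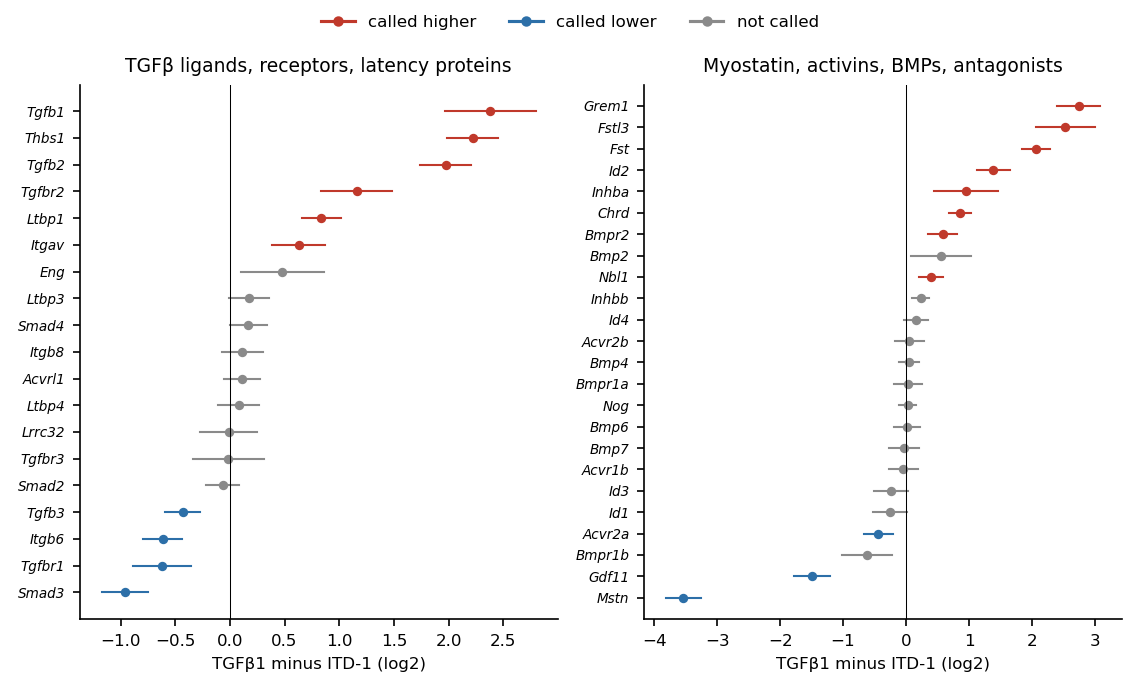
Difference of TGFβ1 minus ITD-1 (log2) with its 95% confidence interval for each measured member of 2 lists, TGFβ ligands, receptors and latency proteins (left) and myostatin, activins, BMPs and their antagonists (right), n = 3 arrays each. *Tgfb1*, *Thbs1* and *Tgfb2* stand at the high end on the left with *Smad3* lowest, and on the right the antagonists *Grem1*, *Fstl3* and *Fst* are opposite *Mstn* at -3.54.

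The related ligands and their antagonists gave the widest spread of any list. Of 24 members, 8 were higher, 3 were lower and 13 were not called, with a median of 0.05. The called members were 45.8%, beside 8.15% of all genes. *Fst*, follistatin, which binds and neutralizes activins and myostatin, was at 10.68, 10.74 and 10.53 with TGFβ1, against 8.44, 8.60 and 8.71 with ITD-1 (2.07 ± 0.10). *Fstl3*, a follistatin-like protein with the same kind of ligands, was at 9.34, 9.58 and 9.15 with TGFβ1, against 6.54, 6.69 and 7.25 with ITD-1 (2.53 ± 0.20). Neither antagonist overlapped between the groups, which holds for every called gene, and *Chrd*, the BMP antagonist chordin, differed by 0.85. *Gdf11*, the closest relative of myostatin, was at 7.07, 7.04 and 6.76 with TGFβ1, against 8.37, 8.33 and 8.65 with ITD-1 (-1.50 ± 0.12). Of the inhibitor of differentiation genes, which BMPs typically induce, *Id2* was higher (1.39) and *Id1* (-0.25) and *Id3* (-0.24) were not called.

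Extracellular matrix genes differed mainly upward. Among 21 collagen genes 9 were higher, none was lower and 12 were not called (median 0.15). The share called was 42.9%, beside 8.15% of all genes and 11.1% of the third bin of level, where the median member lay. *Col18a1*, a basement membrane collagen, was at 6.70, 6.76 and 6.47 with TGFβ1, against 4.88, 4.67 and 4.72 with ITD-1 (1.89 ± 0.10). *Col5a2* (1.77), *Col3a1* (1.13), *Col5a1* (1.13) and *Col1a2* (1.03), chains of fibrillar collagens, were higher as well. The partner chain of type I collagen did not follow, since *Col1a1* was at 4.87 to 4.95 with TGFβ1 and 4.85 to 4.90 with ITD-1 (0.05, 95% interval -0.10 to 0.20).

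Enzymes that finish collagen had 7 of 15 members higher, none lower and 8 not called, with a median of 0.59. The share called was 46.7%, beside 8.15% of all genes. Beside *Lox* the higher members included *Loxl1* (2.26), a second cross-linking oxidase, *Bmp1* (1.55), the protease that trims procollagen, *Plod2* (1.23), a lysyl hydroxylase, *Pcolce* (1.23), a helper of that protease, and *P4ha2* (1.05), a prolyl hydroxylase. For *Pcolce* the control mean of 6.95 was level with the TGFβ1 mean of 6.95, against 5.72 with ITD-1. Glycoproteins and proteoglycans of the matrix numbered 29, with 9 called higher, 2 called lower and 18 not called (37.9% called, median 0.24). The 2 lower calls were both lost without TGFβ1 replicate 1 or 3 or ITD-1 replicate 2 or 3, and the count was 1 without ITD-1 replicate 1. *Fn1*, fibronectin, was at 11.20, 11.35 and 11.27 with TGFβ1, against 8.95, 8.68 and 9.08 with ITD-1 (2.37 ± 0.11, 5.17-fold). *Lamb1*, a laminin chain, was higher by 1.69, *Bgn*, biglycan, by 1.66 and *Vcan*, versican, by 1.39.

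Proteases and their inhibitors were changed in both directions, with 8 of 28 members higher, 2 lower and 18 not called (median 0.13). The share called was 35.7%, beside 8.15% of all genes. *Mmp14*, a membrane-bound metalloproteinase, was at 8.77, 8.85 and 8.68 with TGFβ1, against 6.17, 5.87 and 6.95 with ITD-1 (2.44 ± 0.25). *Mmp2*, which MMP14 activates, differed by 1.41, and *Timp3*, like *Timp1* an inhibitor of these enzymes, by 2.73. In the other direction, *Adam19* was at 6.24, 6.28 and 6.05 with TGFβ1, against 7.52, 7.47 and 7.52 with ITD-1 (-1.31 ± 0.08), and *Adamts5*, a versican-cleaving protease, differed by -1.22.

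Actin filaments of the cytoplasm carry cell shape and movement, and those of the sarcomere carry contraction. Of 44 genes for actin filaments and actin-binding proteins, 20 were higher with TGFβ1, 4 were lower and 20 were not called, with a median of 0.41. The share called was 54.5%, beside 8.15% of all genes and 19.7% of the highest bin of level, where the median member lay. *Flna*, the filament cross-linker filamin A, was at 8.68, 8.62 and 8.64 with TGFβ1, against 7.34, 7.13 and 7.29 with ITD-1 (1.39 ± 0.08, adjusted p = 0.000133). *Msn*, moesin, which ties actin to the membrane, was at 11.35, 11.30 and 11.34 with TGFβ1, against 10.22, 10.14 and 10.14 with ITD-1 (1.16 ± 0.06). These 2 genes were named for having the smallest adjusted p of the list. A wide group gap beside little spread within groups is therefore a result of that choice. *Tagln2* (2.28) and *Tagln* (1.80), transgelins of contractile and migrating cells, *Actn1* (1.32), the non-muscle α-actinin, *Cap1* (1.28), *Myl9* (1.18), *Myh9* (1.12), non-muscle myosin, and *Actb* (1.11), cytoplasmic β-actin, were also higher.

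Among the 4 actin genes that were lower, *Cap2*, the form of the actin-recycling protein CAP that is found in muscle, fell furthest. *Cap2* was at 9.68, 9.64 and 9.56 with TGFβ1, against 10.76, 10.75 and 10.63 with ITD-1 (-1.09 ± 0.07, 2.12-fold). Its close relative *Cap1* differed in the opposite direction. *Arhgef6*, an exchange factor for RAC1 and CDC42 that the study also names, was at 6.15, 6.38 and 6.07 with TGFβ1, against 7.78, 7.52 and 7.51 with ITD-1 (-1.40 ± 0.11). *Dock1*, another activator of RAC1 with a known part in fusion, ran the other way (0.74 ± 0.07), as did the kinase *Pak3* (1.07), and *Rac1* itself differed by 0.01 (95% interval -0.17 to 0.20). The 4 lower actin filament genes were 1, *Cap2*, without any of TGFβ1 replicates 1 to 3 or ITD-1 replicate 1.

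Of 46 genes of the sarcomere and of muscle maturation, 18 were lower with TGFβ1, 8 were higher and 20 were not called, with a median of -0.12. The share called was 56.5%, beside 8.15% of all genes and 19.7% of the highest bin of level, where the median member lay. *Myh1*, an adult fast myosin heavy chain, was at 9.76, 9.61 and 9.85 with TGFβ1, against 10.91, 10.83 and 10.88 with ITD-1 (-1.13 ± 0.08, adjusted p = 0.000331). *Myh8*, the perinatal myosin, was at 7.96, 8.25 and 8.15 with TGFβ1, against 9.55, 9.59 and 9.34 with ITD-1 (-1.38 ± 0.10). *Myom1* (-1.07) of the M band, *Ldb3* (-1.03) of the Z disc and *Atp2a1* (-0.96), the calcium pump of fast fibers, fell too. The embryonic myosin *Myh3* differed less, at 12.11, 12.08 and 12.14 with TGFβ1, against 12.54, 12.49 and 12.34 with ITD-1 (-0.35 ± 0.07, adjusted p = 0.033). That call was lost when TGFβ1 replicate 1, 2 or 3 or ITD-1 replicate 1 or 2 was left out (adjusted p 0.0753 to 0.121). The count of 18 lower genes was 8 without TGFβ1 replicate 1, 9 without TGFβ1 replicate 2, 9 without ITD-1 replicate 1 and 10 without ITD-1 replicate 2.

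The 8 muscle genes that were higher were of mixed kinds. *Mb*, myoglobin, the oxygen store of slow and cardiac muscle, was at 10.33, 10.36 and 10.37 with TGFβ1, against 8.77, 8.75 and 8.51 with ITD-1 (1.68 ± 0.08, 3.20-fold). *Myh7* (0.88), *Myl2* (1.13) and *Tnnt1* (0.74), slow forms of the myosin heavy chain, its regulatory light chain and troponin T, were higher too. So were *Xirp2* (1.69), an actin-binding protein of the intercalated disc and myotendinous junction, *Ckm* (1.13), muscle creatine kinase, and *Myh4* (0.76), a fast myosin, so the slow forms were not the only ones. The ubiquitin ligases of muscle atrophy split, with *Fbxo32* higher (0.65) and *Trim63* lower (-0.83). *Acta1*, skeletal α-actin, differed by 0.00 (95% interval -0.16 to 0.17) and *Des*, desmin, by -0.07 (-0.22 to 0.09).

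**Figure D4:**
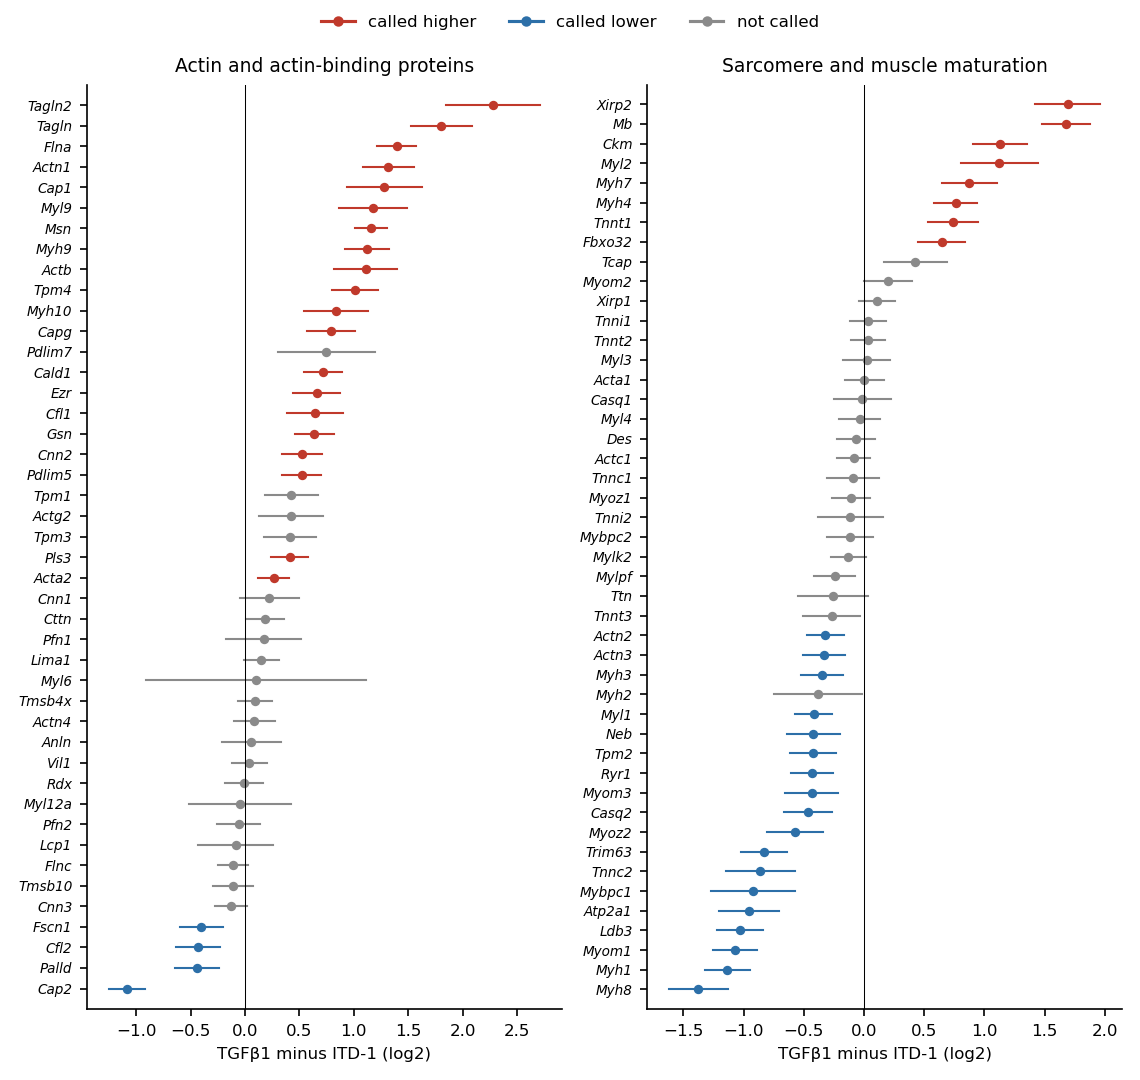
Difference of TGFβ1 minus ITD-1 (log2) with its 95% confidence interval for 44 genes of actin filaments (left) and 46 genes of the sarcomere and muscle maturation (right), n = 3 arrays each, with red for genes called higher, blue for lower and grey for not called. On the left 20 are red and 4 blue, and on the right 8 are red and 18 blue, with *Xirp2* and *Mb* at the top and *Myh8* at the bottom.

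Identity of the cells was checked against marker genes. All 8 skeletal muscle markers lay above the array median on all 9 arrays, controls included. Their mean level was 11.34 to 11.35 with TGFβ1 and 11.46 to 11.54 with ITD-1, so that the groups did not overlap. Of single genes, 23.4% of all tested did not overlap either. Among the 8, 2 were called lower, *Cdh15* and *Actn2*. That is 25%, near the 19.7% called in the highest bin of level, where all 8 lay. The call of *Cdh15* was lost without TGFβ1 replicate 1 (adjusted p = 0.0543), and that of *Actn2* without any single array other than ITD-1 replicate 2 (0.0534 to 0.105), with array centring (0.0524) and with cyclic loess (0.0554). None of 7 fibroblast, 6 endothelial, 3 Schwann cell or 4 adipocyte markers lay above the array median on all 9 arrays, and none of the fibroblast or endothelial markers was called. Of 5 macrophage or other leukocyte markers 1 did, *Cd68*, at a mean of 4.61 with TGFβ1 and 4.62 with ITD-1, and none was called. Of 6 smooth muscle or pericyte markers 5 lay above the median, with mean levels of 5.44 to 5.53 with TGFβ1 and 5.68 to 5.78 with ITD-1, and *Abcc9*, a subunit of potassium channels found in several kinds of muscle, was lower by 1.59 in the TGFβ1 group. The part of these small shifts in the results on muscle and actin genes was not tested. In cultures measured whole, fewer cells of a type and less RNA per cell cannot be told apart.

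Of the 13 transcription factors that direct myogenesis, 1 was called (7.69%, near the 8.15% of all genes). *Myod1* (difference -0.09, 95% interval -0.36 to 0.17) and *Myog* (-0.10, -0.24 to 0.04), the factors of commitment and differentiation, did not pass the test. The satellite cell factor *Pax7* was at 7.04, 6.99 and 6.68 with TGFβ1, against 6.43, 6.39 and 6.68 with ITD-1 (0.40, 0.11 to 0.70, adjusted p = 0.118). The exception was *Myf6*, also called MRF4, the factor of late differentiation, at 5.35, 5.23 and 4.92 with TGFβ1, against 6.68, 6.61 and 6.53 with ITD-1 (-1.44 ± 0.12, 2.71-fold). At the neuromuscular junction 1 of 12 genes was called (8.33%, again near the share of all genes and below the 19.7% of the highest bin of level, where the median of both lists lay), *Chrnd*, the δ subunit of the acetylcholine receptor (-0.56 ± 0.07), while *Chrng*, the fetal γ subunit, was at -0.34 (adjusted p = 0.0859).

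Fusion of myocytes needs the membrane proteins myomaker and myomerger. *Mymk* was at 12.57, 12.63 and 12.53 with TGFβ1, against 12.66, 12.57 and 12.56 with ITD-1 (difference -0.02, 95% interval -0.17 to 0.13). *Mymx*, for myomerger, was at 7.23, 7.27 and 7.07 with TGFβ1, against 7.36, 7.40 and 7.27 with ITD-1 (-0.15, -0.34 to 0.03). Both intervals bound the difference to less than 1.5-fold. Of 30 genes linked to fusion, 6 were higher, 4 lower and 20 not called, with a median of -0.01. The share called was 33.3%, beside 8.15% of all genes and 19.7% of the highest bin of level, where the median member lay. The clearest rises were *Adgrg1*, an adhesion receptor (8.78, 8.84 and 8.78 with TGFβ1, against 6.13, 5.85 and 6.42 with ITD-1, a difference of 2.66 ± 0.14), *Anxa5* (1.57) and *Anxa1* (1.06), annexins that bind membrane phospholipids, and *Jam2* (1.28), a junction adhesion molecule. *Bin1* (-0.37), which bends membranes into transverse tubules, was among the 4 that fell, a count that was 2 without TGFβ1 replicate 1.

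Secreted signals were mostly higher where they were called. Of 42 cytokines, chemokines and growth factors, 15 were higher, 1 was lower and 26 were not called (median 0.06). The share called was 38.1%, beside 8.15% of all genes and 11.1% of the third bin of level, where the median member lay. *Hbegf*, a ligand of the epidermal growth factor receptor, was at 7.17, 7.48 and 7.00 with TGFβ1, against 4.55, 4.67 and 4.47 with ITD-1 (2.65 ± 0.13, 6.28-fold). All platelet-derived growth factor genes of the list were higher, *Pdgfb* by 1.70, *Pdgfa* by 1.02 and *Pdgfc* by 0.87. The gene that fell was *Igf2*, an insulin-like growth factor of differentiating muscle, at 11.22, 11.18 and 11.12 with TGFβ1, against 11.57, 11.57 and 11.57 with ITD-1 (-0.40 ± 0.06). The count of 15 was 9 without TGFβ1 replicate 2 and 8 without ITD-1 replicate 1.

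Immediate early factors switch on within minutes of a growth signal and usually fade, and here they were read after 24 h. Of 15 members 10 were higher, none was lower and 5 were not called, with a median of 0.73. The share called was 66.7%, beside 8.15% of all genes. *Egr2* was at 7.53, 7.83 and 7.59 with TGFβ1, against 5.37, 4.87 and 5.30 with ITD-1 (2.47 ± 0.15, 5.55-fold), and *Egr3* (1.71), *Myc* (1.08) and *Ier3* (1.04) were also higher. The count of 10 was 6 without TGFβ1 replicate 2. The AP-1 subunits were less uniform, since *Jun* differed by 0.12 (adjusted p = 0.49) and *Fos* by 0.62 (adjusted p = 0.1).

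Other developmental pathways changed in part. Of 42 Wnt pathway genes 8 were higher, 1 was lower and 33 were not called (median 0.12). The share called was 21.4%, beside 8.15% of all genes. *Lef1*, a nuclear effector, was at 5.98, 5.94 and 5.78 with TGFβ1, against 4.41, 4.17 and 4.43 with ITD-1 (1.56 ± 0.10), and the ligand *Wnt9a* differed by 1.25. The receptor *Fzd5*, at 5.10, 4.90 and 5.04 with TGFβ1, against 6.62, 6.48 and 6.89 with ITD-1, was the one that fell. The 8 higher Wnt genes were 3 when both arrays with the narrowest spread of intensities were left out. Notch genes had 4 of 16 higher and 2 lower (37.5% called), the 2 being 1 without any single array other than ITD-1 replicate 2. The ligands *Dll1* (1.37) and *Jag1* (1.26) and the target *Hes1* (1.51) were higher, whereas the receptor *Notch1* was at 6.71, 6.66 and 6.71 with TGFβ1, against 7.63, 7.68 and 7.47 with ITD-1 (-0.90 ± 0.08). Among 14 transcription factors of epithelial to mesenchymal transition and related programs, 4 were higher, among them *Snai3* (1.33) and the tendon factor *Scx* (0.98), and 2 were lower, *Prrx1* (-0.66) and *Runx1* (-0.48). Of the 14, 42.9% were called, beside 19.7% of the highest bin of level, where the median member lay. Integrins and focal adhesion genes had 6 of 24 higher and 1 lower, led by *Tgfb1i1*, an adaptor of focal adhesions, at 7.33, 7.48 and 7.18 with TGFβ1, against 5.83, 5.57 and 6.44 with ITD-1 (1.38 ± 0.22), and followed by *Tns1* (1.09), *Itgb4* (1.05) and *Tln2* (0.70). Of the 24, 29.2% were called, beside 19.7% of the highest bin of level, which also held their median member. The call of *Tgfb1i1* was lost without TGFβ1 replicate 1 or 2 or ITD-1 replicate 1 (adjusted p 0.0511 to 0.0603). The 6 higher adhesion genes were 3 without TGFβ1 replicate 1 or 2 or ITD-1 replicate 1, and the 4 higher transition factors were 2 without any of TGFβ1 replicates 1 to 3 or ITD-1 replicate 1.

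Cholesterol synthesis had the highest share of members called lower of the 25 lists shown. Of 20 enzymes and regulators, 12 were lower with TGFβ1, none was higher and 8 were not called, with a median of -0.53, beside 3.44% of all genes called lower. *Hsd17b7*, an enzyme of the late pathway, was at 7.34, 7.31 and 7.40 with TGFβ1, against 8.67, 8.37 and 8.38 with ITD-1 (-1.12 ± 0.10, 2.18-fold). *Dhcr7* (-0.96), *Msmo1* (-0.95), *Pmvk* (-0.90), *Cyp51* (-0.85) and *Nsdhl* (-0.80), enzymes between mevalonate and cholesterol, fell as well. *Insig1*, a sterol sensor that restrains the pathway, differed by 0.07 (95% interval -0.19 to 0.33). The count of 12 was 3 when both arrays with the narrowest spread of intensities were left out.

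**Figure D5:**
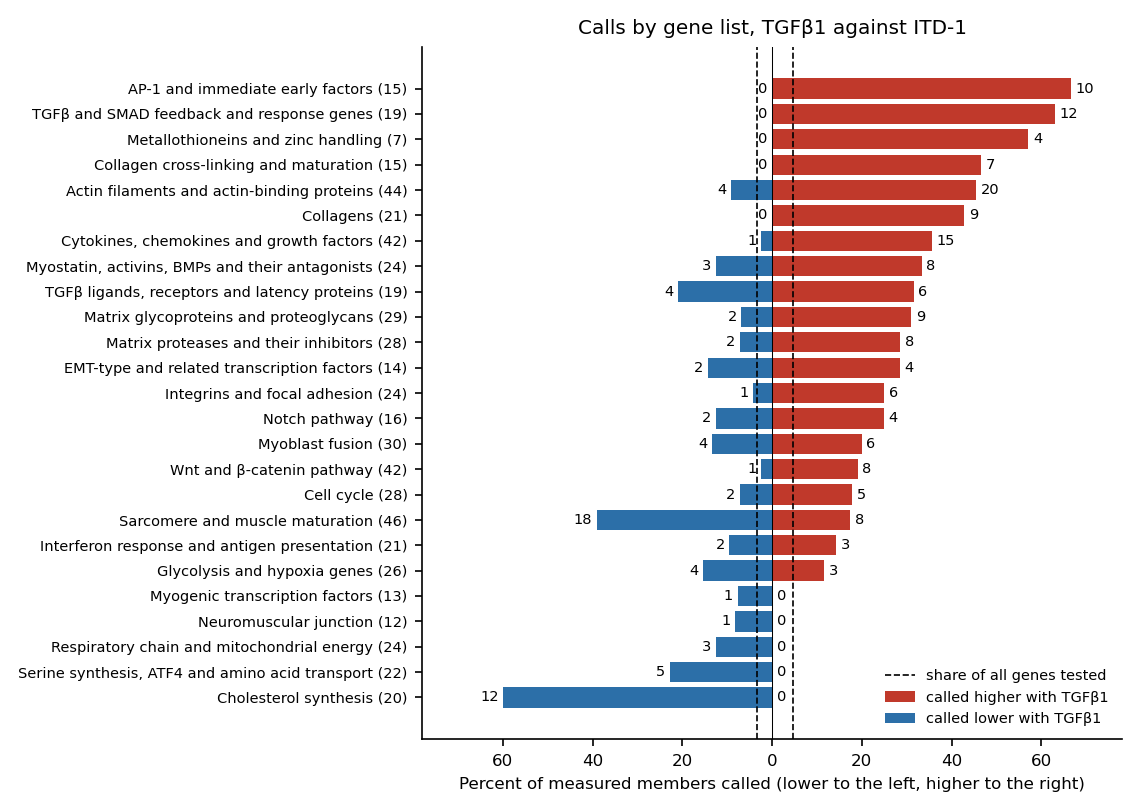
Percent of the measured members of each of 25 gene lists that were called lower (blue, to the left) or higher (red, to the right) with TGFβ1, with the number of members called beside each bar and the number measured after each name. Dashed lines mark the shares over all genes, 3.44% lower and 4.71% higher, and cholesterol synthesis (12 of 20 lower) and immediate early factors (10 of 15 higher) lie at the ends.

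Other metabolic lists had fewer genes called lower. Of 22 genes of serine synthesis and amino acid supply, 5 were lower and none was higher. The share called was 22.7%, near the 19.7% of the highest bin of level, where the median member lay. *Psat1*, an enzyme of serine synthesis, was at 7.39, 7.26 and 6.74 with TGFβ1, against 8.51, 8.67 and 8.62 with ITD-1 (-1.47 ± 0.16, 2.78-fold), while *Atf4*, the factor that controls many of these genes, differed by -0.05 (95% interval -0.21 to 0.11). *Chac1* (-0.58) and *Slc7a5* (-0.77) were called, but *Chac1* was not without TGFβ1 replicate 1, 2 or 3 or ITD-1 replicate 2 (adjusted p 0.0521 to 0.103), nor *Slc7a5* without any single array other than ITD-1 replicate 1 (0.0579 to 0.115). The count of 5 was 1 to 3 without any single array other than ITD-1 replicate 1.

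In the respiratory chain all 24 genes had a difference below 0, from -0.86 to -0.05, with a median of -0.25, beside 57.4% of all genes below 0 and 52.6% of those in the highest bin of level, where the median member lay. Of the 24, 3 were called (12.5%), near the 8.15% of all genes and below the 19.7% of that bin. These 3, *Cox6a2* (-0.86), *Cox8b* (-0.67) and *Ndufa9* (-0.68), subunits of complexes of the chain, each lost the call when single arrays were left out: *Cox6a2* without ITD-1 replicate 2 or 3 (adjusted p 0.0503 to 0.0544), *Cox8b* without TGFβ1 replicate 2 or 3 or ITD-1 replicate 1 or 3 (0.0501 to 0.0848) and *Ndufa9* without any single array other than ITD-1 replicate 3 (0.0604 to 0.127). Glycolysis and hypoxia genes had 3 of 26 higher, led by *Egln3*, and 4 lower, of which *Pgam2*, the muscle phosphoglycerate mutase, differed by -1.24. Of the 26, 26.9% were called, beside 8.15% of all genes. The 4 lower genes were 1 or 2 without any single array other than ITD-1 replicate 2. Both metallothioneins *Mt1* (1.85) and *Mt2* (2.19), which bind zinc, were higher. *Mt2* was at 8.11, 8.17 and 7.93 with TGFβ1, against 5.63, 5.88 and 6.12 with ITD-1, and the controls averaged 7.13. *Slc39a10*, a zinc importer, was higher by 0.46.

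Of 28 cell cycle genes, 5 were higher, 2 lower and 21 not called, so that 25% were called, against 8.15% of all genes. The D-type cyclins *Ccnd1* (7.12, 7.52 and 7.12 with TGFβ1, against 6.28, 6.34 and 6.51 with ITD-1, a difference of 0.87 ± 0.13) and *Ccnd2* (0.44) and the replication helicase subunit *Mcm6* (0.86) were higher. Control means of *Ccnd1* (7.44) and *Ccnd2* (9.57) lay above the TGFβ1 means (7.25 and 9.47). For *Mcm6* the control mean, 5.23, lay between 5.83 with TGFβ1 and 4.97 with ITD-1. *Ccnd2* lost its call without TGFβ1 replicate 1 (adjusted p = 0.0522), and *Mcm6* without TGFβ1 replicate 1 or 2 or ITD-1 replicate 1 or 3 (0.0735 to 0.0822). The 5 higher genes were 1 without TGFβ1 replicate 1 and 2 without TGFβ1 replicate 2, ITD-1 replicate 1 or ITD-1 replicate 3, and the 2 lower genes were 1 or none without any single array. *Mki67*, the proliferation marker, was at 5.06, 4.62 and 5.17 with TGFβ1, against 4.79, 5.17 and 5.05 with ITD-1, so that the groups overlapped. *Cdkn1a*, the inhibitor that holds myocytes out of the cycle, differed by -0.05 (95% interval -0.20 to 0.10). Interferon and antigen presentation genes had 3 of 21 higher, among them *H2-K1* (1.09) and *Usp18* (1.14), and 2 lower, among them *Ifit1* (-1.05 ± 0.07). Of the 21, 23.8% were called, beside 8.15% of all genes and 11.1% of the third bin of level, where the median member lay. The call of *H2-K1* was lost without TGFβ1 replicate 2 (adjusted p = 0.0562), without which the list had 1 gene called higher, and the 2 lower genes were 1 without any other single array.

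MicroRNA genes were read by probe sets on their precursors or host transcripts, and 11 of 534 were called (4 higher and 7 lower), 2.06% against 8.15% of all genes. Their median level, 3.08, lay in the lowest of the 4 bins, where 0.324% were called. The miR-181 genes are shown because identical mature sequences come from 2 loci, and the *Mir181b* probe sets of these differed in opposite directions. Mature sequences are from RefSeq on GRCm38.p6, 5′ to 3′, with the seed (bases 2 to 8) in capitals.
mmu-miR-181a-5p: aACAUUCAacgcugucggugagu
mmu-miR-181b-5p: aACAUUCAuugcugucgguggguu
mmu-miR-206-3p: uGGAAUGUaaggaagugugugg
miR-181a-5p and miR-181b-5p share the seed ACAUUCA. *Mir181b-1* on chromosome 1 was at 3.90, 4.22 and 4.17 with TGFβ1, against 4.79, 5.26 and 4.66 with ITD-1 (-0.81 ± 0.17). Its control arrays, at 4.15, 4.84 and 4.66, overlapped both groups. No value is given here for its neighbor *Mir181a-1*, so *Mir181b-1* alone stands for that locus. *Mir181b-2* on chromosome 2 was at 4.81, 5.02 and 4.65 with TGFβ1, against 3.83, 4.09 and 3.55 with ITD-1 (1.01 ± 0.15). The TGFβ1 and ITD-1 arrays did not overlap for either gene, and *Mir181a-2*, the neighbor of *Mir181b-2*, was higher (0.54 ± 0.11). *Mir206*, from a muscle-specific locus on chromosome 1, was lower with TGFβ1 than with ITD-1 (-0.76 ± 0.17). Its control mean of 5.14 lay near the TGFβ1 mean of 5.05, against 5.80 with ITD-1. These microRNA genes were chosen after their values were seen. Without single arrays the calls of *Mir181b-1* (TGFβ1 replicate 1, 2 or 3 or ITD-1 replicate 1, adjusted p 0.0838 to 0.124), *Mir181a-2* (any but ITD-1 replicate 3, 0.0646 to 0.134) and *Mir206* (any of the 6, 0.058 to 0.14) were lost, and that of *Mir181b-2* was not.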

How the data were processed

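RNA from primary mouse myocytes was hybridized to MouseGene 2.0 ST arrays, 1 sample per array. The authors deposited log2 intensities after RMA background correction, quantile normalization and summarization with a custom probe annotation (version 22), and their processing notes name Partek. Normalization between arrays removes overall differences in RNA amount. Here 723 probe sets without a symbol and 1 duplicate were set aside. The 3 TGFB1 and 3 ITD-1 arrays were compared with limma 3.58.1 (lmFit and eBayes, two-sided) in R 4.3.3, tested first on simulated data. An exact permutation test of 3 against 3 arrays cannot give a p below 0.1. Named genes were the 15 largest rises and falls among called, non-overlapping genes without predicted genes and small RNAs, the 3 smallest adjusted p in each of 26 gene lists and genes that the study names (107), plus 93 named after their values were seen. Members and lists were chosen with earlier results of these data known. List members and 7 marker lists were counted with no set test, and 1 of the 26 lists is not reported here. Alternatives were other fits and scalings, a level filter, a replicate block and each array left out, also for the list counts. Depth in reads does not apply to arrays.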

Additional observations from a re-analysis of the deposited data

Results flagged for a closer look

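Probe sets with no gene symbol took no part in the comparison of genes. Among 723 of them, 74 were called in TGFβ1 against ITD-1 (limma, adjusted over them and the named genes together), 52 higher and 22 lower. The share called was 10.2%, near the 8.15% of all genes with a symbol. What they measure is not described in the sources used here.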

How the results depend on the processing

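The counts of genes called, 1164 higher and 850 lower, stayed within 1.5 times their size with all 9 arrays in 1 fit (1462 and 1052), array centring (1144 and 762), cyclic loess (1314 and 947), genes above the median level (1383 and 1018), a robust trended prior (1183 and 894), array weights (1520 and 1121), the methods' analysis of variance (1085 and 778) and unnamed probe sets added (1166 and 851). With the replicate number as a block the counts were 924 and 581; residuals of arrays with the same number correlated at 0.0869, -0.113 and -0.117, so the numbers were not taken as pairs. Leaving out each array in turn gave 720 to 1048 higher and 441 to 762 lower genes: without TGFβ1 replicate 1, 733 and 441, without TGFβ1 replicate 2, 720 and 514, without TGFβ1 replicate 3, 549 lower, without ITD-1 replicate 1, 524 lower, and without ITD-1 replicate 2, 540 lower. Leaving out both arrays with the narrowest spread of intensities, TGFβ1 replicate 3 and ITD-1 replicate 2, an alternative chosen after seeing the data, gave 481 and 214, with 2 arrays a group. That setting moved 31 of 52 counts of list members called in 1 direction by over 1.5 times, among them higher TGFβ response genes (6, from 12), actin filament genes (12, from 20), collagens (5, from 9), cytokines (5, from 15), immediate early factors (4, from 10) and Wnt genes (3, from 8), and lower sarcomere (6, from 18) and cholesterol genes (3, from 12). The replicate block moved 9 of these counts, and leaving out a single array 6 to 15. The count by unadjusted p and fold was 1280 to 1481 in all of these. Of 176 named genes that were called, 136 kept the call under every alternative and 40 lost it under at least 1 of them, 39 of these with both narrow arrays left out, and none changed direction while called. The number of arrays limits precision, and small differences in dim probe sets were not detectable.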

Other observations

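Genes outside the lists, chosen after their values were seen, were also far apart. *Ckb*, the brain form of creatine kinase, was at 10.38, 10.48 and 10.45 with TGFβ1, against 7.95, 7.89 and 8.04 with ITD-1 (difference 2.48 ± 0.07, limma adjusted p = 3.52e-05). *Sema7a*, a membrane-anchored semaphorin, differed by 2.68, *Rrad*, a small GTPase that dampens calcium channels, by 2.45, and *Cdh6*, a cadherin, by 2.28. The binding proteins of insulin-like growth factors *Igfbp7* (2.31) and *Igfbp5* (2.02), the adhesion molecule *Alcam* (1.93), the hyaluronan synthase *Has2* (1.90) and the ephrin *Efnb2* (1.84) were higher as well. Among lower genes, *Pcx*, pyruvate carboxylase, was at 4.90, 4.97 and 4.93 with TGFβ1, against 6.30, 6.36 and 6.72 with ITD-1 (-1.53 ± 0.12), and *Ppp1r3a*, the muscle glycogen-targeting subunit of protein phosphatase 1, differed by -1.47. *Kcnn3*, a calcium-activated potassium channel, differed by -1.39, *S1pr1*, a receptor for sphingosine 1-phosphate, by -1.34, *Sox6*, a repressor of slow fiber genes, by -1.31, and *Fech*, the last enzyme of heme synthesis, by -1.28.

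Noncoding transcripts were uneven. Of 106 small nucleolar RNAs, which guide the modification of ribosomal RNA, 12 were higher with TGFβ1 and 1 was lower (12.3%, against 8.15% of all genes and 19.7% of the highest of 4 bins by level, in which their median level of 7.75 lay). *Snora75* was at 9.82, 9.42 and 9.56 with TGFβ1, against 8.69, 8.70 and 8.41 with ITD-1 (1.00 ± 0.13), and *Snora3* (0.67) and *Snord43* (0.62) were higher. Of 3055 long noncoding RNAs, 20 were higher and 43 lower (2.06%), at a median level of 3.41, in a bin where 1.47% were called. *Morrbid* was higher by 1.49 and the snoRNA host gene *Snhg12* by 0.92, while *H19* (-0.14) and *Malat1* (-0.02) did not pass the test.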
